A study of Mus musculus with 8 samples.

Results

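The 200 loci described here are the most counted of the genes that carry the name of a genomic clone. They were chosen by their values: of 23568 rows whose names start with RP23- or RP24-, among 54087 gene rows, these 200 had the highest counts summed over all 8 libraries. The sums ranged from 9208 to 1443203 counts, with a median of 16740.5, and the 200 loci held 69.0% of all counts in clone-named rows, of which 8303 had no count in any library. Names with RP23- belong to 150 of the loci and names with RP24- to 50, from 190 clones in all.

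RNA came from whole testes of C57BL/6 males that were Dnmt3A WT/WT (WT) or Dnmt3A KO/KO (KO), at 19 or 25 days post partum (dpp), with 2 libraries in each of the 4 groups. Dnmt3a encodes a DNA methyltransferase that lays down new methylation marks. The labels do not give the deleted part of the gene, say in which cells it was lost, or say whether replicates were separate animals, so p-values measure the spread between these samples only. All groups are labelled as the same strain, and no further allele or treatment is named.

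RP23 and RP24 are libraries of large mouse genomic inserts carried in bacterial artificial chromosomes. Annotators gave a gene model the name of the insert it was found in when it had no other name, so such a name says nothing about coding potential. In the juvenile testis the first wave of germ cells moves through meiosis and then forms round spermatids, and many genes are first transcribed at those steps. The X and Y chromosomes are transcriptionally silenced in pachytene spermatocytes, while spermatogonia and Sertoli cells, the somatic support cells of the tubule, transcribe them.

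Gene totals were 22515812 to 33192200 counts at 19 dpp and 26405372 to 50445334 at 25 dpp. The WT libraries at 25 dpp were the deepest and held 34.3% of all gene counts, so a sum of raw counts favours loci that were high there. When every library was given equal weight, 185 of the 200 loci were chosen again. Levels are CPM (TMM-scaled counts relative to library size), and log2 fold changes with standard error (SE) and adjusted p-values come from edgeR's quasi-likelihood test over 23353 genes, with calls at an adjusted p under 0.05. All 200 loci passed the filter on low counts. Dnmt3a itself stood at 147 and 141 CPM in WT against 114 and 112 CPM in KO at 19 dpp, and at 48.7 and 70.0 CPM in WT against 76.8 and 67.2 CPM in KO at 25 dpp. Reads from exons outside a deletion would still be counted, so this level is no check of the genotype labels.

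Cell type markers differed between the groups in their summed level, and this was measured beside the loci. The 12 genes of the pachytene to secondary spermatocyte list summed to 1163 and 2738 CPM in WT against 181 and 239 CPM in KO at 19 dpp, and to 10131 to 12912 CPM in WT against 873 to 1550 CPM in KO at 25 dpp. The 14 spermatid markers summed to 832 to 3930 CPM in WT at 25 dpp and to between 9.80 and 33.2 CPM in the other 3 groups, where up to 4 of them were at 0. The 15 Sertoli markers with a row summed to 3880 to 4891 CPM in WT against 7715 to 8785 CPM in KO at 19 dpp, and to 1874 to 2454 CPM in WT against 6078 to 7243 CPM in KO at 25 dpp. Epididymis markers, 6 in number, reached 17.4 CPM in 1 KO library at 25 dpp and at most 0.284 CPM in the other 7 libraries. The part of these cell type differences in the results below was not tested, and in whole tissue fewer cells of a type and less RNA per cell cannot be told apart.

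The rows stand in genome order, which gave each locus a place between named neighbours. Of 28384 neighbouring pairs of rows with a unique GENCODE M21 symbol on 1 chromosome, 99.9% were in ascending order, and 99.8% of such rows lay between their neighbours when left out. All 200 loci were placed, in stretches with a median length of 109.9 kb on mm10. The positions below are those of the start sites of the flanking named genes, or of an M21 gene model that has no row of its own.

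For 66 loci the stretch held 1 row and 1 such model, so the kind of model at that place could be read. It was protein-coding for 48 of them, a long non-coding RNA (lncRNA) for 11, a pseudogene for 6, and a model still awaiting experimental proof (TEC) for 1. Of the 66 models, 6 had a copy elsewhere of at least 95% identity over at least 50% of their length. Both kinds of model were found among loci that fell and among loci that rose: at 19 dpp 19 of the 48 protein-coding places were lower and 4 higher in KO, and of the 11 lncRNA places 6 were lower and 3 higher. At 25 dpp the counts were 27 lower and 11 higher for protein-coding places, and 8 lower and 3 higher for lncRNA places. Of all genes tested, 13.2% were lower and 8.80% higher in KO at 19 dpp, and 37.4% and 26.1% at 25 dpp. A difference between the kinds of model was not tested.

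The 4 most counted loci, RP23-8J15.3, RP23-8J15.2, RP23-8J15.4 and RP23-8J15.1, share 1 clone and held 50.4% of the counts of the 200. They lie on chromosome 1 between Tubb4b-ps2 (24594087) and Lmbrd1 (24678630), where 7 rows face 7 M21 models, all unprocessed pseudogenes on the minus strand. The model at 24613189 to 24613971 is 100% identical to mt-Co3, and the models at 24613974 to 24614651 and 24614885 to 24615565 are 100% identical to mt-Atp6 and mt-Co2. These mitochondrial genes encode subunits of cytochrome c oxidase and of ATP synthase. The rows of mt-Co2, mt-Atp6 and mt-Co3 held only 22 to 70 counts per library, while the 4 loci held 93476 to 229840. Elsewhere in the stretch this differed. The model at 24615706 to 24616197 is 99.8% identical to mt-Co1, whose row held 251802 to 497945 counts. The models from 24611535 to 24613119 are 99.7% to 100% identical to mt-Nd4, mt-Nd4l and mt-Nd3. The rows of these genes held 8321 to 96037 counts, while RP23-8J15.5, RP23-8J15.6 and RP23-8J15.7 held 15 to 1269. Reads of the 2 origins cannot be told apart in these counts, and the levels of the 4 loci are given without assigning them to the nucleus.

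RP23-8J15.3 stood at 5945 and 5694 CPM in WT against 5382 and 6146 CPM in KO at 19 dpp, and at 3923 and 4296 CPM in WT against 6214 and 6890 CPM in KO at 25 dpp. The groups overlapped at 19 dpp, and at 25 dpp both KO libraries were above both WT libraries. The log2 fold changes of KO over WT were −0.01 (SE 0.13, edgeR adjusted p = 0.995) and 0.67 (SE 0.13, edgeR adjusted p = 0.00302). At 25 dpp RP23-8J15.1, RP23-8J15.2 and RP23-8J15.4 rose by 0.74, 0.56 and 0.53, with edgeR adjusted p of 0.00156, 0.00567 and 0.0102. All 4 turn lower in KO when libraries are scaled to Sertoli markers. Of the 6 rows of mitochondrial genes set beside them, mt-Co1 (0.73), mt-Nd5 (0.73) and mt-Nd1 (0.51) also rose at 25 dpp, with edgeR adjusted p of 0.00213, 0.0174 and 0.0495. mt-Cytb (0.55), mt-Nd4 (0.30) and mt-Nd2 (0.21) were not called, with edgeR adjusted p of 0.0838, 0.425 and 0.550. The ratio of the summed counts of the 4 loci to those of the rows with mitochondrial names was 0.790 to 0.936 over the 8 libraries.

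The 200 loci held 3.97% and 3.95% of gene counts in WT against 3.29% and 3.56% in KO at 19 dpp, and 3.96% and 3.99% in WT against 4.07% and 4.28% in KO at 25 dpp. Within this near-level share the makeup moved. The 4 loci of RP23-8J15 held 1.07% and 1.34% of gene counts in WT at 25 dpp and between 2.07% and 2.64% in the other 6 libraries. The remaining loci held 2.89% and 2.65% in WT at 25 dpp and 1.22% to 1.70% elsewhere. With 2 libraries a side, an exact test of 1 such share cannot reach 0.05, and none is given.

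**Figure D1:**
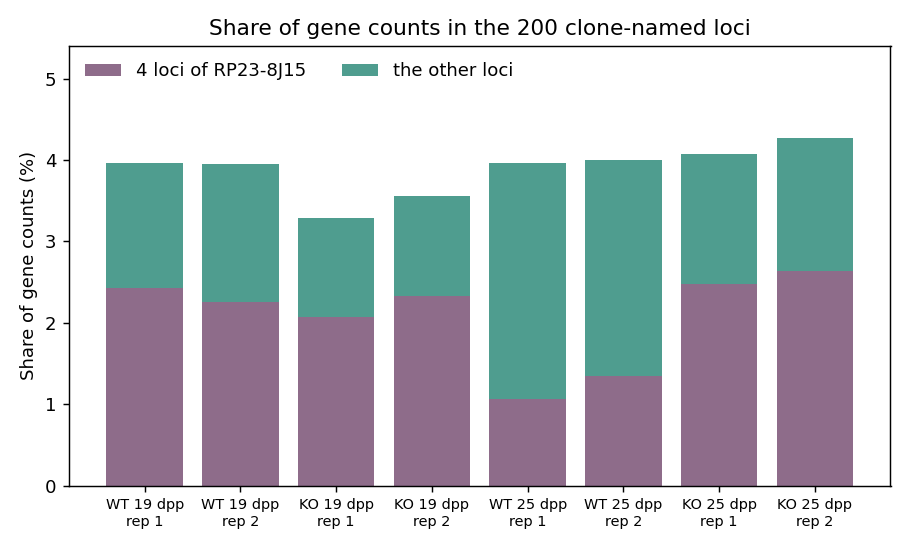
Share of gene counts in percent (vertical axis) held by the 200 loci in each of the 8 libraries, split into the 4 loci of RP23-8J15 and the others; each bar is 1 library. The others held 2.89% and 2.65% in the WT libraries at 25 dpp and 1.22% to 1.70% in the other 6 libraries.

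The next most counted loci did not behave alike. RP23-81C12.3 (chromosome 17, between Esp15 at 39640954 and Esp38 at 39950520) stood at 1220 and 742 CPM in WT against 1005 and 957 CPM in KO at 19 dpp, then at 1127 and 976 CPM in WT against 2197 and 1517 CPM in KO at 25 dpp. The groups overlapped at 19 dpp, and at 25 dpp the locus was higher in KO by 0.82 (SE 0.26, edgeR adjusted p = 0.0273), a direction that turns with Sertoli scaling. RP23-185A18.9 (chromosome 11, between Sdf2 at 78245746 and Spag5 at 78301529) held 517 and 563 CPM in WT against 544 and 563 CPM in KO at 19 dpp, and 1033 and 869 CPM in WT against 422 and 508 CPM in KO at 25 dpp. KO and WT overlapped at 19 dpp, at 25 dpp the locus fell in KO by 1.03 on the log2 scale (SE 0.14, edgeR adjusted p = 8.67e-04), and the difference between the ages was itself called (−1.07, SE 0.20, edgeR adjusted p = 0.0141).

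RP23-243E17.1 on chromosome 3 showed the reverse order of ages. Its levels were 466 and 557 CPM in WT against 197 and 228 CPM in KO at 19 dpp, and 600 and 647 CPM in WT against 475 and 551 CPM in KO at 25 dpp. KO libraries were below WT libraries at both ages, but the fall passed the test at 19 dpp (−1.26, SE 0.15, edgeR adjusted p = 0.00714) and not at 25 dpp (−0.28, SE 0.15, edgeR adjusted p = 0.126), and the difference between the ages was called (0.98, SE 0.21, edgeR adjusted p = 0.0200). RP23-92G13.4 (chromosome 13, at a protein-coding model from 24801657 to 24816197) ranged from 358 to 435 CPM over the 8 libraries, and none of its 4 pairwise contrasts was called.

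Most of the 200 loci that differed at 19 dpp were lower in KO. Of the 200, 101 fell and 14 rose, against 13.2% lower and 8.80% higher (22.0% in either direction) among all genes tested, and the median log2 fold change was −0.79, against 0.00. The other 5824 clone-named loci tested gave 636 lower and 107 higher. Genes with other names and a summed count at or above that of the lowest of the 200, 6904 in number, gave 1481 lower and 1155 higher. The KO and WT libraries did not overlap for 129 loci on the lower side and 39 on the higher side, where 66.4% of all genes did not overlap. A choice on the 4 libraries of 25 dpp alone, which the comparison at 19 dpp does not use, gave 116 lower and 9 higher with a median of −1.43. That choice shared 167 loci with the 200 and includes the WT libraries of 25 dpp, which were the deepest. The call rests on few libraries: without replicate 1 of KO at 19 dpp edgeR called 0 of the 200 loci and 0 of all genes, with 116 loci and 5256 genes at an unadjusted p under 0.05. Leaving out the other KO library gave 48 lower and 2 higher, and leaving out replicate 2 of WT gave 75 lower and 3 higher.

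The deepest falls at 19 dpp were of loci with few or no counts in KO. RP23-240G18.1 (chromosome 13, between Gcnt4 at 96924689 and Fam169a at 97067286) stood at 2.12 and 13.2 CPM in WT and had no count in either KO library. Against a floor of 3 counts over the KO group it was at least 157-fold lower. RP24-308E2.1 (chromosome 14, between Gm25614 at 58650268 and Rcbtb1 at 59201209) stood at 1.09 and 3.73 CPM in WT, also had no count in KO, and was at least 49.0-fold lower on the same floor. RP24-254D18.5 (chromosome 15) was at 0.0642 and 3.48 CPM in WT and without counts in KO, at least 36.7-fold lower, and its difference was not called (edgeR adjusted p = 0.102). All 3 were counted in both KO libraries at 25 dpp.

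RP23-75P5.2, which lies on chromosome 6 between Prss58 (40895270) and Trbv2 (41047340), stood at 2.47 and 22.1 CPM in WT against 0 and 0.0284 CPM in KO at 19 dpp (−9.22, SE 1.92, edgeR adjusted p = 0.0200). RP23-10B20.7, on chromosome 17 between Ttc7 (87282886) and Calm2 (87433412), stood at 4.88 and 25.1 CPM in WT against 0.0419 and 0.0851 CPM in KO (−7.72, SE 1.29, edgeR adjusted p = 0.0114). RP23-292E3.8, at a protein-coding model on chromosome 11 (50940711 to 50943765), stood at 4.08 and 21.1 CPM in WT against 0.0838 and 0.0568 CPM in KO (−7.46, SE 1.41, edgeR adjusted p = 0.0148). In each of these loci both WT libraries were above both KO libraries, and replicate 2 of WT was several times replicate 1. Among the 101 loci that fell, replicate 2 of WT was the higher of the pair in 98, by a median of 2.16-fold, and the same library had the higher sum of pachytene markers.

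RP23-250E1.1, at a protein-coding model on chromosome 6 (129322164 to 129331796, between Cd69 and Clec12a), was the tenth most counted locus. Its levels were 21.8 and 114 CPM in WT against 0.587 and 1.05 CPM in KO at 19 dpp, and at 1247 and 838 CPM in WT against 23.6 and 49.3 CPM in KO at 25 dpp. The KO libraries lay below the WT libraries at each age, with log2 fold changes of −6.32 (SE 0.98, edgeR adjusted p = 0.00964) and −4.84 (SE 0.84, edgeR adjusted p = 0.00279).

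Rises at 19 dpp were small, and none of the 200 loci was more than 4-fold higher in KO at either age, while 69 were more than 4-fold lower at 19 dpp and 80 at 25 dpp. Of all genes tested, 9.90% were as far down at 19 dpp and 24.2% at 25 dpp, and of the 6904 comparably counted genes 5.98% and 11.99%; 4-fold rises were found in 1.34% and 3.21% of all genes. RP23-285C18.2 (chromosome 7, between Gm23251 at 75757259 and Klhl25 at 75848310) stood at 47.2 and 30.5 CPM in WT against 88.3 and 78.1 CPM in KO at 19 dpp (1.10). RP23-419G21.1 (chromosome 2, between Gm24868 at 151435794 and Nsfl1c at 151494182) stood at 57.0 and 50.7 CPM in WT against 116 and 111 CPM in KO (1.08). RP23-338E5.2, at a lncRNA model on chromosome 6 (35252654 to 35263496), stood at 68.3 and 69.3 CPM in WT against 131 and 124 CPM in KO (0.89, SE 0.13, edgeR adjusted p = 0.00758), and its direction turns with Sertoli scaling. The groups did not overlap for any of these 3 loci. RP23-285C18.2 and RP23-419G21.1 were not among the top 200 over the libraries of 25 dpp, which holds for 33 of the 200 loci, so their values at 19 dpp are a description. The 13 of 15 Sertoli markers called at 19 dpp were also higher in KO, with a list median of 1.03.

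**Figure D2:**
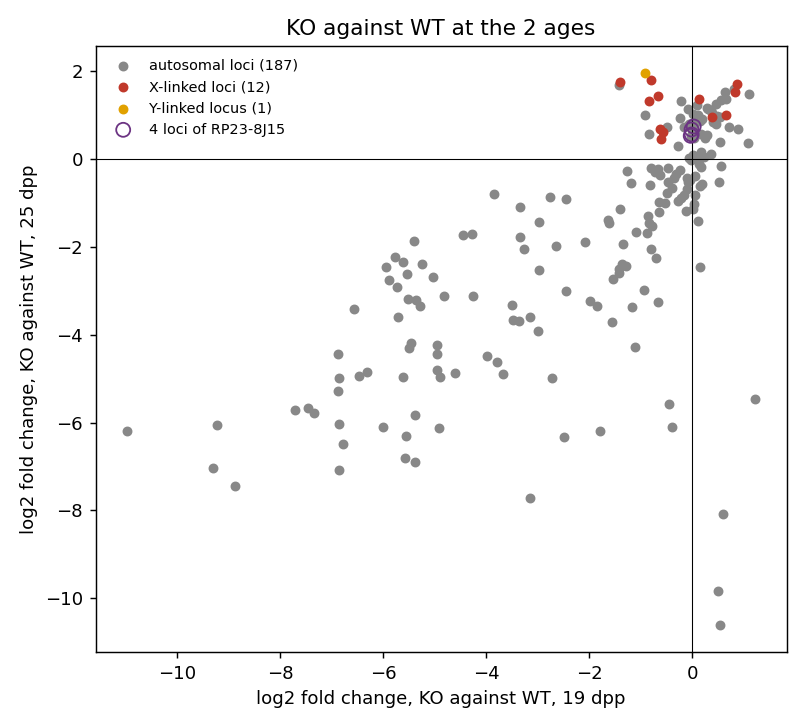
Log2 fold change of KO over WT at 19 dpp (horizontal axis) and 25 dpp (vertical axis) for each of the 200 loci, coloured by chromosome type, with the 4 loci of RP23-8J15 circled. Changes reach −10.97 on the left and −10.60 at the bottom, where a few loci near 0 at 19 dpp are far down at 25 dpp, and no rise exceeds 1.95.

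At 25 dpp more loci were called in both directions. Of the 200, 122 fell and 49 rose in KO, against 37.4% lower and 26.1% higher (63.5% in either direction) among all genes tested, and the median was −1.11, against −0.12. The other clone-named loci gave 2924 lower and 762 higher of 5824, with a median of −1.27. The 6904 comparably counted genes with other names gave 2585 lower and 2515 higher. Levels did not overlap between KO and WT for 133 loci on the lower side and 58 on the higher side, with 84.6% of all genes not overlapping. The excess of lower loci at 25 dpp changed with how the loci were chosen, and the sum includes the WT libraries of that age. The part of the choice in this excess was not tested. The 200 loci with the highest mean CPM, which still uses those libraries, gave 107 lower and 58 higher with a median of −0.61. The 200 with the highest sum over the 4 libraries of 19 dpp alone, a choice added after seeing the data, gave 68 lower and 81 higher with a median of 0.25. Sertoli scaling, which shifts the median of all genes to −1.75, left 178 lower and 0 higher.

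The largest falls at 25 dpp were of loci near 0 in every group but WT at 25 dpp. In all, 57 of the 200 loci were not among the top 200 over the libraries of 19 dpp. The values that placed such loci here are those of WT at 25 dpp, so for them differences that use that group are given as a description, with no test. RP23-410L16.5 (chromosome 8, between Jund at 70698949 and Pde4c at 70723720) stood at 341 and 98.6 CPM in WT against 0.162 and 0.106 CPM in KO at 25 dpp, and at 0.128 to 0.251 CPM in all libraries at 19 dpp. The log2 fold change at 25 dpp was −10.60. RP23-293N23.3 (chromosome 12, between Hs1bp3 at 8313432 and Rhob at 8497661) stood at 244 and 73.0 CPM in WT against 0.135 and 0.213 CPM in KO, a log2 fold change of −9.84. RP23-124G7.3, at a protein-coding model on chromosome 17 (56875477 to 56888904), stood at 180 and 73.2 CPM in WT against 0.351 and 0.603 CPM in KO (−8.07).

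In these 3 loci replicate 1 of WT was well above replicate 2, and both were above every other library. The spermatid markers showed the same order, at 3930 CPM in replicate 1 and 832 CPM in replicate 2. For 41 of the 200 loci more than 50% of the summed CPM lay in 1 library, and for all 41 that library was replicate 1 of WT at 25 dpp.

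Other large differences at 25 dpp, again without a test, were of loci already counted in WT at 19 dpp. RP23-464F22.3 (chromosome 10, between Zfp938 at 82224850 and Tdg at 82629828) stood at 431 and 169 CPM in WT against 0.892 and 1.99 CPM in KO (−7.73). RP23-252B13.1 (chromosome 9, between the olfactory receptor genes Olfr981 at 40021464 and Olfr982 at 40073829) stood at 863 and 574 CPM in WT against 3.73 and 7.03 CPM in KO (−7.07). The 2 M21 models without a row in that stretch are both pseudogenes. RP23-410J2.1, at a protein-coding model on chromosome 6 (96164497 to 96166243), stood at 1111 and 726 CPM in WT against 7.0 and 13.4 CPM in KO (−6.50). WT and KO did not overlap for any of the 3.

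**Figure D3:**
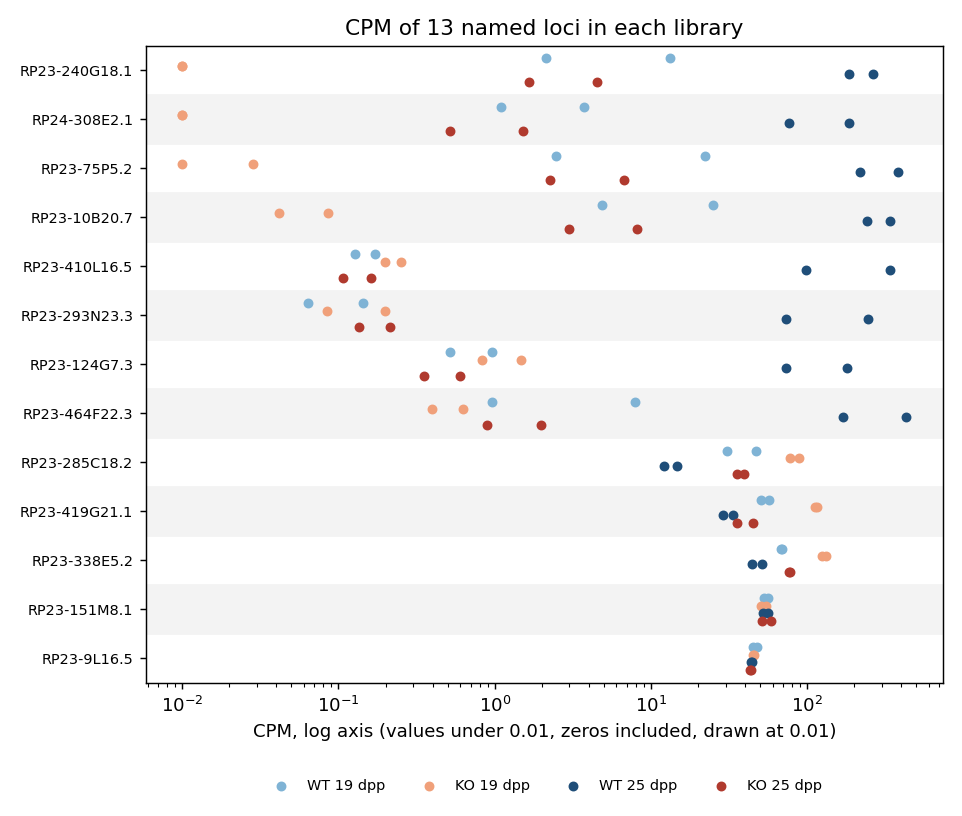
CPM (horizontal log axis) of 13 loci (rows) in each library, with 2 points per group and values under 0.01 drawn at 0.01. The first 4 rows lie at or under 0.0851 CPM in KO at 19 dpp, RP23-410L16.5, RP23-293N23.3 and RP23-124G7.3 exceed 1.47 CPM only in WT at 25 dpp, and RP23-151M8.1 stays between 50.5 and 58.6 CPM.

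Rises at 25 dpp were led by loci of the sex chromosomes. RP24-1D8.3, the only one of the 200 on the Y chromosome (between Rhoay-ps2 at 3747151 and Vmn2r-ps139 at 4005164), stood at 28.0 and 37.7 CPM in WT against 147 and 106 CPM in KO at 25 dpp (1.95, SE 0.41, edgeR adjusted p = 0.00578). RP23-128E7.2, on the X chromosome between Scml2 (161117193) and Prkaca-ps1 (161485567), stood at 27.4 and 31.8 CPM in WT against 98.4 and 109 CPM in KO (1.81, SE 0.29, edgeR adjusted p = 0.00152). RP23-158M12.2, on the X chromosome between Supt20-ps (93920295) and Zfx (94074631), stood at 74.2 and 95.3 CPM in WT against 277 and 275 CPM in KO (1.70, SE 0.22, edgeR adjusted p = 6.30e-04). In all 3 both KO libraries were above both WT libraries. An autosomal locus, RP24-538B17.1, at a lncRNA model on chromosome 10 (4391587 to 4396424), stood at 20.2 and 25.7 CPM in WT against 71.6 and 61.6 CPM in KO (1.54, SE 0.17, edgeR adjusted p = 4.61e-04), without overlap and with a direction that turns with Sertoli scaling.

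RP23-145O4.4, the most counted X-linked locus, lies at a protein-coding model (X, 36423601 to 36491830, next to Pgrmc1). Its levels were 689 and 743 CPM in WT against 1296 and 1233 CPM in KO at 19 dpp, and at 322 and 407 CPM in WT against 1117 and 993 CPM in KO at 25 dpp. KO was above WT without overlap at both ages, by 0.82 (SE 0.15, edgeR adjusted p = 0.0107) and 1.53 (SE 0.15, edgeR adjusted p = 3.33e-04). Sertoli scaling turned both values, to −0.11 and −0.09.

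Over the 12 X-linked loci, 9 rose and 0 fell in KO at 25 dpp, with a median of 1.35, where the 187 autosomal loci gave 39 higher and 122 lower. Of 716 X-linked genes with other names, 60.3% rose and 14.5% fell. At 19 dpp 3 of the 12 rose and 1 fell, with a median of −0.59, and of the 716 other X-linked genes 143 rose and 8 fell, with a median of 0.36. The 12 include the pairs of clones RP23-65C22 (−0.57 and −0.61) and RP23-49C8 (−0.85 and −0.62), which were not called at 19 dpp. Loci of 1 clone may share reads, so the median of the 12 leans on few places. From 19 to 25 dpp in WT 8 of the 12 fell and 0 rose, as did 58.2% of the other X-linked genes. No test was made of the X-linked loci as a list, since they were picked with these values known.

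**Figure D4:**
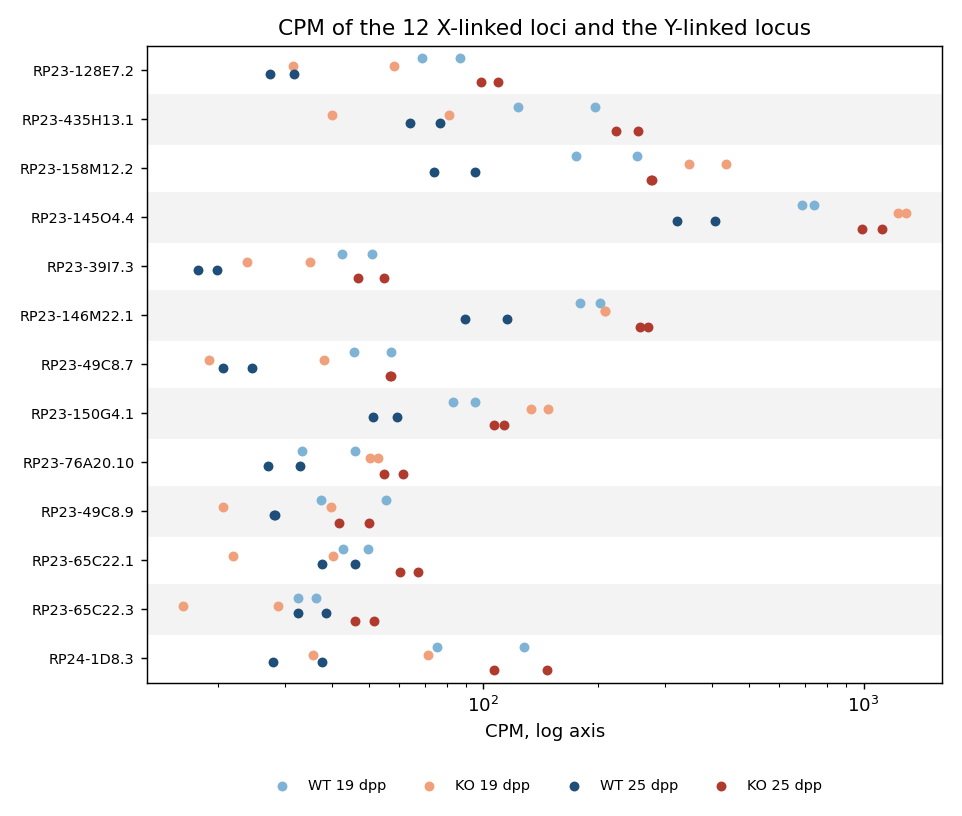
CPM (horizontal log axis) of the 12 X-linked loci, ordered by the change at 25 dpp, and of the Y-linked locus RP24-1D8.3 in the last row, with 2 points per group. For RP23-128E7.2 the KO libraries at 25 dpp stand at 98.4 and 109 CPM, right of the WT libraries of that age at 27.4 and 31.8 CPM.

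Crossing the calls of the 2 ages, which share no library, gave 90 loci called lower in KO at both ages and 11 called higher at both. Another 31 were called lower at 25 dpp only, 35 higher at 25 dpp only and 8 lower at 19 dpp only, and 19 were called at neither. These classes include loci that entered the 200 through WT at 25 dpp. For them calls that use that group are no test, so the class sizes are a description. Chosen on the libraries of 19 dpp alone, 68 loci were lower and 81 higher in KO at 25 dpp. Of all genes tested, 9.76% were lower at both ages, 27.2% lower at 25 dpp only, 19.05% higher at 25 dpp only, 6.52% higher at both and 31.7% called at neither. Of the 6904 comparably counted genes with other names, 15.6% were lower at both ages and 13.7% higher at both. Since the classes were formed from calls on these same libraries, the differences between KO and WT medians below follow in part from the grouping. The median CPM over the 90 loci lower at both ages was 22.9 and 46.8 in WT against 1.97 and 2.97 in KO at 19 dpp, and 190 and 163 in WT against 15.5 and 27.7 in KO at 25 dpp. The medians of KO at 25 dpp overlapped those of WT at 19 dpp and lay below those of WT at 25 dpp. Over the 31 called lower at 25 dpp only, the medians at 19 dpp were 33.2 and 36.1 CPM in WT against 32.1 and 32.6 CPM in KO. At 25 dpp they were 180 and 86.1 CPM in WT against 33.2 and 33.6 CPM in KO. Over the 35 called higher at 25 dpp only, the medians were 31.9 and 37.7 CPM in WT at 25 dpp and 64.5 to 74.4 CPM in the other 6 libraries. A missing call at the other age does not show that the locus was unchanged there. RP24-254D18.5, among the 31, was at least 36.7-fold lower in KO at 19 dpp. The test of the difference between the ages called 16 of the 31, 19 of the 35 and 2 of the 8 lower at 19 dpp only.

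**Figure D5:**
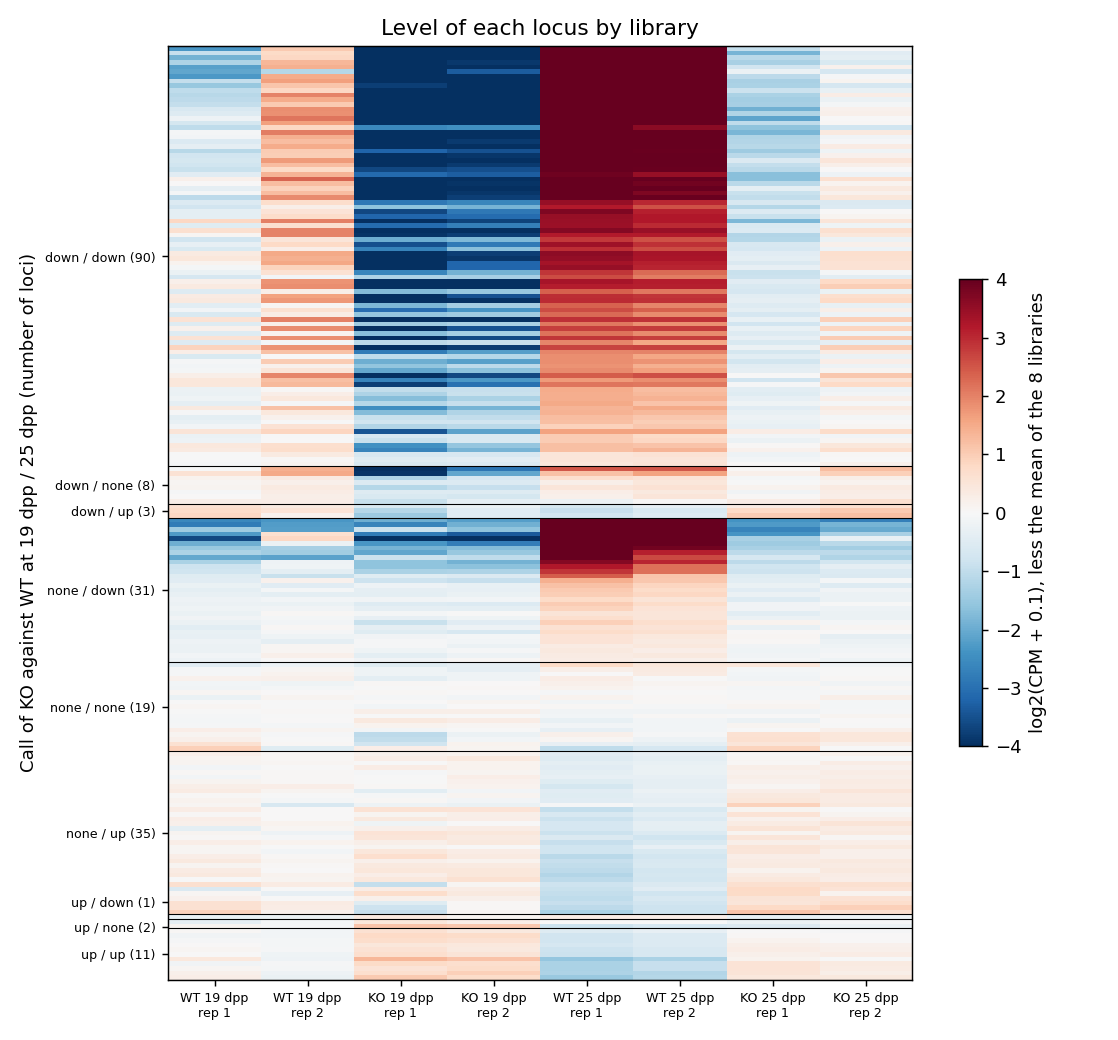
Level of each of the 200 loci (rows) in each library (columns) as log2(CPM + 0.1) less the mean of the 8 libraries, with colours ending at −4 and 4; rows are grouped by the calls of KO against WT at 19 and 25 dpp. The block of 90 loci lower at both ages is darkest blue in KO at 19 dpp and darkest red in WT at 25 dpp.

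Lower in KO at 19 dpp and higher at 25 dpp were 3 loci (1.5%), and 1 (0.5%) had the opposite order. Of all genes tested 0.54% and 0.45% did so, and of the 6904 comparably counted genes 0.94% and 0.83%. RP23-435H13.1, at a protein-coding model on the X chromosome (57409154 to 57488767), stood at 197 and 123 CPM in WT against 40.0 and 81.2 CPM in KO at 19 dpp, and at 64.1 and 77.0 CPM in WT against 224 and 255 CPM in KO at 25 dpp. KO moved from below WT (−1.40, SE 0.36, edgeR adjusted p = 0.0358) to above it (1.76, SE 0.36, edgeR adjusted p = 0.00530). RP24-365N15.2, at a pseudogene model on chromosome 9 (75468616 to 75486681, between Leo1 and Tmod3), stood at 109 and 94.7 CPM in WT against 29.0 and 47.1 CPM in KO at 19 dpp, then at 34.2 and 42.0 CPM in WT against 113 and 132 CPM in KO. Its changes were −1.41 (SE 0.24, edgeR adjusted p = 0.00964) and 1.69 (SE 0.24, edgeR adjusted p = 9.55e-04). The third, RP23-376B19.2, at a protein-coding model on chromosome 1 (163945993 to 163994796), was named after its values were seen. It changed by −0.92 at 19 dpp and 1.00 at 25 dpp (edgeR adjusted p = 0.0189 and 0.00374), the second of which turns to −0.60 with Sertoli scaling. RP23-437A9.3 on chromosome 9, also named after its values were seen, rose by 0.51 at 19 dpp and fell by 0.53 at 25 dpp (edgeR adjusted p = 0.0280 and 0.00767).

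The KO effect differed between the ages for 58 loci by the test of the difference itself, 35 of them with a higher and 23 with a lower value at 25 dpp, against 7.68% and 11.4% of all genes (19.1% in either direction). Among the 6904 comparably counted genes with other names, 13.3% were higher and 16.7% lower. Their share called in either direction, 30.0%, was near the 29% of the 200 loci. The 58 include loci that entered the 200 through WT at 25 dpp, for which the call is no test, so the count is a description. The balance of higher and lower loci moved with the scaling: 77 were higher and 16 lower with total counts, and 2 higher and 17 lower with Sertoli markers, where the median went from 0.31 to 0.85 and −0.36. Among the 58 loci called, the highest values were in loci that were deeply down at 19 dpp and less so at 25 dpp. RP23-189N15.2 (chromosome 2, between Gm22889 at 127677670 and Mall at 127704386) stood at 47.9 and 160 CPM in WT against 1.59 and 3.21 CPM in KO at 19 dpp, and at 217 and 243 CPM in WT against 40.3 and 86.3 CPM in KO at 25 dpp. The difference between its KO effects was 3.54 (SE 0.91, edgeR adjusted p = 0.0407). RP23-412L13.2 (chromosome 3) and RP23-440F7.2 (chromosome 10) gave 3.53 and 3.49, with edgeR adjusted p of 0.0269 and 0.0374, and RP23-57A16.1 (chromosome 10, between Hmga2 and Mir763) gave 3.17 with an edgeR adjusted p of 0.0469. In all 4, KO was below WT at both ages without overlap.

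The lowest differences between the ages belonged to loci counted at any height only in WT at 25 dpp. Without a test, for the reason given, these were RP23-410L16.5 (−11.14), RP23-293N23.3 (−10.33) and RP23-124G7.3 (−8.68). RP24-301O19.2, at a protein-coding model on chromosome 19 (42052248 to 42053627), stood at 1.28 and 1.18 CPM in WT against 3.06 and 2.696 CPM in KO at 19 dpp, and at 226 and 35.0 CPM in WT against 3.46 and 2.38 CPM in KO at 25 dpp. Its difference was −6.69. Without replicate 1 of KO at 19 dpp 7 higher and 5 lower differences were called. Leaving out replicate 1 of KO at 25 dpp gave 12 and 5, and leaving out its replicate 2 gave 8 and 12.

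The age comparisons share their libraries with those of genotype, so their values are set beside the others and not crossed with them. In WT 107 of the 200 loci rose and 46 fell from 19 to 25 dpp, against 34.9% and 25.4% of all genes (60.3% in either direction), with a median of 1.00, against 0.01. Groups did not overlap for 187 loci (131 higher and 56 lower), and for 83.7% of all genes. Of the other 5824 clone-named loci tested, 47.5% rose and 10.7% fell, with a median of 1.02. Among the 6904 comparably counted genes with other names, 36.7% rose and 33.7% fell. The sum that chose the 200 includes the WT libraries of 25 dpp. A choice by the highest mean CPM gave 92 higher and 52 lower, with a median of 0.60. Of the 200, RP23-293N23.3 and RP23-410L16.5 had the largest values, 10.50 and 10.47. RP24-314D22.1 (chromosome 6, between Ppfibp1 at 146888487 and Rep15 at 147032584) went from 0.803 and 1.64 CPM to 283 and 159 CPM, a value of 7.49, while in KO it went from 0.126 and 0.284 CPM to 3.14 and 2.31 CPM. The deepest falls in WT were RP24-1D8.3 on the Y chromosome (−1.63, SE 0.41, edgeR adjusted p = 0.0126) and RP23-285C18.2 (−1.54, given without a test).

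In KO 90 loci rose and 6 fell from 19 to 25 dpp, against 10.2% and 8.87% of all genes (19.1% in either direction), with a median of 0.77, against 0.00. Among the 6904 comparably counted genes with other names 18.5% rose and 11.0% fell, and among the other 5824 clone-named loci tested 6.66% and 1.96%. Groups did not overlap for 170 loci (142 higher and 28 lower), and for 65.5% of all genes. RP23-240G18.1 went from no count to 1.65 and 4.54 CPM, at least 57.1-fold higher on the floor of 3 counts over the younger group. RP23-75P5.2 and RP23-10B20.7 rose by 7.75 and 6.27 (SE 2.07 and 1.34, edgeR adjusted p = 0.0450 and 0.0241), and RP23-252B13.1 and RP23-410J2.1 by 6.22 and 6.01 (SE 1.61 and 1.53, edgeR adjusted p = 0.0411 and 0.0392). For the last pair, both KO libraries of 25 dpp lay between the 2 WT libraries of 19 dpp. The lowest value was that of RP23-419G21.1, from 116 and 111 CPM to 35.3 and 45.0 CPM (−1.50, without a test). These counts rest on single libraries: edgeR called 0 of the 200 loci without replicate 1 of KO at 19 dpp, where 101 had an unadjusted p under 0.05, and 39 higher and 2 lower without replicate 2. Without replicate 1 or replicate 2 of KO at 25 dpp 52 and 11 rose, and 1 fell in each case.

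Mean levels were highest in WT at 25 dpp for 134 loci, in KO at 19 dpp for 32, in KO at 25 dpp for 29 and in WT at 19 dpp for 5. Over all genes tested the shares of these groups were 45.0%, 31.5%, 14.05% and 9.49%. Over the other 5824 clone-named loci tested they were 59.1%, 20.2%, 12.5% and 8.19%. The sum that chose the 200 includes the WT libraries of 25 dpp. The 134 became 115 with total counts and 120 for the 200 loci with the highest mean CPM. The median locus stood at 128 CPM in WT at 25 dpp, 46.4 CPM in WT at 19 dpp, 44.4 CPM in KO at 25 dpp and 26.9 CPM in KO at 19 dpp. In KO at 19 dpp 39 loci had a mean under 1 CPM, and in WT at 25 dpp 0 did.

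A smaller group was level throughout: for 17 loci none of the 4 pairwise log2 fold changes exceeded 0.5 in size. RP23-151M8.1, at a pseudogene model on chromosome 2 (40555752 to 40557116), ranged from 50.5 to 58.6 CPM over the 8 libraries. Its model has 7 near-identical copies among M21 models, so reads of those copies may be counted in it or be missing from it. RP23-9L16.5 (chromosome 8, between Trim67 and Gnpat) ranged from 43.2 to 47.7 CPM, and RP23-452K4.2, at a protein-coding model on chromosome 13 (54551218 to 54565435), from 111 to 130 CPM. RP23-242O9.1 (chromosome 4, between Esrp1 and Rad54b) ranged from 135 to 156 CPM and RP23-325E4.5 (chromosome 2, between Nacc2 and Lhx3) from 47.9 to 57.9 CPM.

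Clones with more than 1 locus among the 200 were few. RP23-8J15 had 4, and 7 clones had 2 each. The 2 loci of a clone got the same call of KO against WT in 6 of the 7 pairs at 19 dpp and in 4 of 7 at 25 dpp, where the log2 fold changes within a pair differed by up to 2.29. Such loci are neighbours on the chromosome and, without the strand setting of the counting, may share reads.

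At the edge of the choice, RP24-482A24.5 and RP23-389K5.5 were just inside, with sums of 9242 and 9208 counts, and RP23-246F18.7 and RP23-9C19.3 just outside, with 9125 and 9065. RP24-482A24.5 and RP23-9C19.3 had similar counts in all libraries, from 958 to 1470 and from 798 to 1265. RP23-389K5.5 had 4647 and 3122 of its counts in the WT libraries at 25 dpp. RP23-246F18.7 had 6988 and 2135 counts there, 2 in 1 KO library at 25 dpp and 0 in the other 5 libraries.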

How the data were processed

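The 8 deposited files, 1 per library, hold raw counts for 55292 rows: 54087 genes and 1205 repeat families, which were left out. Per the submitters' processing notes the authors used STAR 2.7.0a, featureCounts 1.5.1 and mm10; the annotation, strand setting and handling of reads with several matches are not given in the sources used here. Libraries were made with a stranded mRNA kit, per the labels' protocols. The loci, gene lists and tests were chosen with earlier results of these data known.

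Counts were TMM-scaled, filtered with filterByExpr by group (23353 genes kept) and fitted with edgeR 4.0.16 in R 4.3.3 (robust quasi-likelihood, 1 mean per group, 4 residual degrees of freedom), with Benjamini-Hochberg adjustment over all genes at 0.05; the fit was tested on simulated data. SEs are log2 fold changes, sign dropped, divided by the root of the F statistic. Floors of 3 counts cover counting error only. Loci were placed by row order against GENCODE M21, 1-based, and copies sought with BLAST 2.17.0.

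Named loci are the 10 most counted, up to 8 per direction in KO against WT, 5 in age contrasts and 4 in the difference between ages, by size among called loci (groups not overlapping, except for that difference), the 5 steadiest, those at the edge, and clones with 3 or more; the text names part of these, and others are marked. Alternatives were 3 other scalings, 2 filters, DESeq2 1.42.0, limma-voom (limma 3.58.1), a replicate block, fewer libraries and other choices of loci.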

Additional observations from a re-analysis of the deposited data

Results flagged for a closer look

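For 58 of the 200 loci the KO effect differed between 19 and 25 dpp by the interaction test of edgeR, 35 with a higher and 23 with a lower log2 difference at 25 dpp. This is 29% of the loci, near the 30.0% called among the 6904 comparably counted genes with other names. The 58 include loci that entered the 200 through WT at 25 dpp, for which the call is no test, so this count is a description. The higher and lower counts became 77 and 16 with total-count scaling and 2 and 17 with Sertoli scaling. Among loci of the naming rule counted in the 58, the difference of the log2 fold changes (25 dpp less 19 dpp) was lowest in RP23-410L16.5 (−11.14), RP23-293N23.3 (−10.33), RP23-124G7.3 (−8.68), RP24-301O19.2 (−6.69) and RP24-314D22.1 (−3.86). These were all highest in WT at 25 dpp and entered the 200 through that group, so their values are a description with no test. Among the named loci of the 58 the difference was highest in RP23-189N15.2 (3.54), RP23-412L13.2 (3.53), RP23-440F7.2 (3.49) and RP23-57A16.1 (3.17), which were below WT at both ages. RP23-435H13.1 (3.16), RP24-365N15.2 (3.10) and RP23-376B19.2 (1.92) went from below WT to above it. The sex-linked loci RP24-1D8.3 (2.87), RP23-128E7.2 (2.60) and RP23-145O4.4 (0.71) had higher values at 25 dpp, as had RP23-243E17.1 (0.98) and RP24-538B17.1 (0.90). RP24-538B17.1 was not among the top 200 over the libraries of 25 dpp, so its value is a description with no test. RP23-185A18.9 (−1.07) fell at the older age. Among the loci of RP23-8J15, which cannot be told apart from mitochondrial RNA, RP23-8J15.1 (0.71) and RP23-8J15.3 (0.69) passed this test. Groups have 2 libraries, too few to look for a single library that stands apart by a gap rule.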

How the results depend on the processing

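Of 382 alternative values of the counts, medians and shares over the 200 loci, 286 stayed close, 94 moved and 2 changed sign. With loci chosen on the libraries of the other age only, added after seeing the data, 9 rose at 19 dpp (median −1.43), and 81 rose and 68 fell at 25 dpp, where the median turned to 0.25. Scaling to total counts gave 5 higher loci at 19 dpp, 3 lower in KO over age, 77 higher in the difference between ages, and medians of −0.65 at 25 dpp, 0.47 in WT over age and 0.85 for the difference. Scaling to Sertoli markers gave 0 higher and 155 lower at 19 dpp, 0 higher at 25 dpp, 0 lower in WT, 39 higher and 0 lower in KO over age and 2 higher differences, with medians of −1.73, −2.73, 2.03, 1.09 and, reversed, −0.36; it moves the median of all genes to −0.89, −1.75, 1.03, 0.30 and −0.73. It also turned RP23-338E5.2 (−0.037), RP23-158M12.2 (−0.036), RP23-145O4.4 (−0.11), RP23-320D23.6 (−0.078), RP24-227L14.1 (−0.21) and RP23-150G4.1 (−0.26) at 19 dpp, and RP23-320D23.6 (−0.051), RP23-376B19.2 (−0.60), RP23-145O4.4 (−0.089), RP24-538B17.1 (−0.088), RP23-8J15.1 (−0.89), RP23-8J15.2 (−1.06), RP23-8J15.3 (−0.95), RP23-8J15.4 (−1.09) and RP23-81C12.3 (−0.85) at 25 dpp. The DESeq2 Wald test gave 54 higher and 48 lower differences and 10 lower in KO over age; the last was also 10 with only the libraries compared and with the 200 loci of highest mean CPM, whose medians were −0.61 at 25 dpp and 0.60 in WT over age.

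The top 100 loci gave 9 higher and 55 lower at 19 dpp, 28 and 62 at 25 dpp, 55 and 26 in WT over age, 49 higher in KO over age and 22 and 10 differences, with medians of −1.14 at 19 dpp and 1.03 in KO over age. The top 400 gave 24 and 174, 85 and 245, 224 and 76, 140 and 14, and 53 and 54, with a median of −1.41 at 25 dpp; counts move here because the number of loci does. The share of counts out of all rows was 3.75%, 3.74%, 3.80%, 3.82%, 3.85% and 4.05%, in both WT libraries of each age and then in KO at 25 dpp. The loci of highest mean CPM held 4.01% and 3.98% in WT at 19 dpp and 3.80% and 3.91% in WT at 25 dpp. Loci highest in WT at 19 dpp were 2 with DESeq2 size factors, 23 with total counts and 13 with Sertoli scaling, which left 1 highest in each KO group.

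Leaving out 1 library at a time gave 0 to 18 higher and 0 to 103 lower at 19 dpp (medians −0.92 to −0.66), 46 to 52 and 103 to 122 at 25 dpp (−1.25 to −0.96), 84 to 117 and 31 to 46 in WT over age (0.80 to 1.11), 0 to 109 and 0 to 7 in KO over age (0.67 to 0.92), and 7 to 32 and 5 to 36 differences (0.022 to 0.47). Loci highest in WT at 19 dpp were 4 to 14, in KO at 19 dpp 28 to 33, in WT at 25 dpp 133 to 136 and in KO at 25 dpp 22 to 31. Without RP23-8J15, an alternative added after seeing the data, 45 rose and 122 fell at 25 dpp. Same-numbered libraries deviated together in WT at 19 dpp with KO at 25 dpp (correlation 0.36) and not in the other 5 pairs of groups (−0.09 to 0.048), so the numbers were not taken as pairing, and with a replicate block 13 rose and 97 fell at 19 dpp, 51 and 124 at 25 dpp, 120 and 44 in WT, 94 and 6 in KO, and 40 and 24 differences were called. The cause was not tested where none is given. Depth limits loci such as RP23-240G18.1, without a count in KO at 19 dpp.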
